A study of Homo sapiens with 6 samples.

Results

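The retinoblastoma pocket proteins and the E2F transcription factors decide together whether a cell enters S phase, and their transcripts were described here in 786-O cells with NFE2L3 knockdown. The genes were taken by symbol from the deposited count table: 3 pocket proteins (RB1, RBL1 and RBL2), 3 activator E2Fs (E2F1, E2F2 and E2F3) and 4 repressor E2Fs (E2F4, E2F6, E2F7 and E2F8). These 10 genes were among 56303 genes in the table, and all 10 were among the 19916 genes with enough reads to be tested. Further relatives of the family were not analysed here.

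786-O is an established line of clear cell renal cell carcinoma that lacks functional VHL. The study knocked down NFE2L3, a CNC-family basic leucine zipper transcription factor, to find the genes it regulates in this cancer. It also reported less proliferation after NFE2L3 knockdown in 786-O cells and, by flow cytometry, a larger percentage of cells in G0/G1. How those assays relate to the RNA levels below was not tested. RNA-seq was done on 3 control libraries (siControl, genotype WT, labelled 0 h) and 3 knockdown libraries (siNFE2L3, labelled 48 h), all from 786-O cells grown in culture. The genotype label names NFE2L4 in 1 knockdown sample and NFE2L5 in another, but the titles and source names of both give NFE2L3. An effect of the siRNA and an effect of the labelled time cannot be told apart in this design, and the sources used here do not say which NFE2L3 siRNA went into these libraries. The statistics section of the study speaks of independent trials for its data in general, and no source ties these 6 libraries to separate cultures. The p-values therefore cover the variation among these libraries, some of which may be technical.

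In the unphosphorylated state the pocket proteins hold E2F factors on promoters and keep the genes of DNA replication off. Cyclin-dependent kinases of G1 phosphorylate them, and the activators E2F1, E2F2 and E2F3 are then free to switch on replication genes and further E2F genes, E2F1 itself included. E2F4 mostly works as a repressor with RBL1 (p107) or RBL2 (p130), E2F6 represses with a Polycomb complex and without pocket proteins, and the atypical E2F7 and E2F8 bind DNA without a DP partner and repress E2F targets late in S phase and after.

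NFE2L3 had 116.3, 112.5 and 115.3 CPM (counts scaled to the library total) in the control libraries and 19.5, 19.1 and 20.8 CPM in the knockdown libraries. The knockdown libraries thus held 17.2% of the control level, in all 3 libraries (log2 fold change −2.54 ± 0.0482, SE, adjusted p = 3.98e-22, edgeR quasi-likelihood test). Library totals ran from 51828446 to 57391929 counts. The 10 markers chosen for 786-O cells summed to between 4933.0 and 5068.8 CPM per library, although CA9 stayed at 0.107 CPM or below and NDUFA4L2 at 0.931 CPM or below. Within this sum, mean CPM rose from control to knockdown for VEGFA (2311.6 to 2540.0), EPAS1 (220.3 to 240.7) and PAX2 (6.96 to 7.35). It fell for VIM (1348.9 to 1261.8), KRT8 (480.0 to 384.9), CDH2 (309.0 to 236.1), PAX8 (240.5 to 216.9) and KRT18 (122.5 to 103.3). The sums reached at most 0.537 CPM for 3 leukocyte markers, 0.45 CPM for 3 endothelial markers, 4.03 CPM for 3 fibroblast markers and 9.64 CPM for EPCAM and CDH1. For 2 of these sums the groups did not overlap, and their part in the results below was not tested. EPCAM and CDH1 summed to 7.35 to 9.08 CPM in control and 9.11 to 9.64 CPM in knockdown, and the fibroblast markers to 3.96 to 4.03 CPM and 3.24 to 3.94 CPM.

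Among the 10 genes, E2F1 and RBL1 were higher after NFE2L3 knockdown and E2F7 was lower. The other 7 genes, RB1 among them, did not pass the test. The counts are read against 12.7% of all tested genes that were higher and 14.0% that were lower at an adjusted p under 0.05. The control and knockdown libraries did not overlap in 4 of the 10 genes (E2F1, RBL1, E2F7 and E2F6), against 39.5% of all tested genes. In the fit used here, no member reached the study's cutoff for differential genes, an unadjusted p under 0.05 with a fold change of at least 2. In this fit 1.10% of tested genes reached it, in either direction. The study's own list came from its own edgeR run and can differ. The median log2 fold change of the 10 genes was 0.00, equal to that of all tested genes. In bulk RNA, a change in the share of cells in a cycle phase and a change in RNA per cell cannot be told apart.

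The promoters of these genes are shown first, because E2F genes are themselves under E2F control and the 3 genes that changed can be compared at the sequence level with those that did not. RefSeq promoter windows on GRCh38.p14 run from 250 bases before to 50 bases after a transcript start, and a usable window was found for 8 of the 10 genes (2 windows each for RBL2 and E2F3). RB1 and E2F8 are not shown. Both strands were searched for 4 spellings of the E2F motif (the spelling TTCCCGC, the spelling TTGGCGC, the spelling TTCGCGC and the spelling TTGCCGC), where a stretch that reads as a motif on both strands counts as 2 matches. At least 1 match was present in 13% of all 35116 windows, and at least 2 matches in 1.77%. The windows of E2F1, RBL1 and E2F7, the genes that changed, are given below with those of E2F2, which has the motif and did not pass the test, and of E2F4, which has none of these letters. Sequences read 5′ to 3′ on the strand of the gene, and capitals mark each match on either strand.
E2F1 (chr20:33686336-33686635, minus strand): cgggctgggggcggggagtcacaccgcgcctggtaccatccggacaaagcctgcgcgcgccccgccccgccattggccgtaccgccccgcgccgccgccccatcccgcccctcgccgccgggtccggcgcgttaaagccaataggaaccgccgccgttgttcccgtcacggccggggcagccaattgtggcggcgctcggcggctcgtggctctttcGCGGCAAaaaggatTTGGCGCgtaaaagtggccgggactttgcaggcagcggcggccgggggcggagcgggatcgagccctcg
RBL1 (chr20:37095948-37096247, minus strand): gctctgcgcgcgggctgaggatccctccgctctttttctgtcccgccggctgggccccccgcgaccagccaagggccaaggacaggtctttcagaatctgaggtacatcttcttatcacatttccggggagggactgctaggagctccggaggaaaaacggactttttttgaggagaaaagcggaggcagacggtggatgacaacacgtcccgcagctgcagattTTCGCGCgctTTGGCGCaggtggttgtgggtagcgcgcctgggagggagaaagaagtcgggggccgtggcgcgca
E2F7 (chr12:77065520-77065819, minus strand): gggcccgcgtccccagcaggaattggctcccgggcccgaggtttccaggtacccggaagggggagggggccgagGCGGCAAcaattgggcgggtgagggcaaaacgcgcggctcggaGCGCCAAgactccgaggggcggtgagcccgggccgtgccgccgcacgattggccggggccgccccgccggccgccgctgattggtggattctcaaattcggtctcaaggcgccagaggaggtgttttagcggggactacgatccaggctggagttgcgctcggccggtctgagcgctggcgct
E2F2 (chr1:23531184-23531483, minus strand): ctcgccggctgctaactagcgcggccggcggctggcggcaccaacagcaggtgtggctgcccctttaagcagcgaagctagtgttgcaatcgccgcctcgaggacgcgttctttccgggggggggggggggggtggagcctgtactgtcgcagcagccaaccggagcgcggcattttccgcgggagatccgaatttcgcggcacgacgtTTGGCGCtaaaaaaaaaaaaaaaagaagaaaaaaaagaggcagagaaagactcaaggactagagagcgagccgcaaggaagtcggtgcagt
E2F4 (chr16:67191905-67192204, plus strand): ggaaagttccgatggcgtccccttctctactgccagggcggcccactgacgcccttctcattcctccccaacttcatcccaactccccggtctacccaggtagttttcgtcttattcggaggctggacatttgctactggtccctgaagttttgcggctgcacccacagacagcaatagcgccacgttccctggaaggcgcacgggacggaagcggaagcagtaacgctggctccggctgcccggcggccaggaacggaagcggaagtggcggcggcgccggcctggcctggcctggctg

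The first base of the match lay 33 and 19 bases before the start of E2F1 and 25 and 15 bases before the start of RBL1. In E2F7 both matches were farther upstream, 176 and 133 bases before the start, and both read on the reverse strand. The single match of E2F2 lay 41 bases before its start. E2F3 also held 2 matches at its first start, at 53 and 24 bases, and E2F6 held 1 match within the transcribed part of its window. E2F4 and both windows of RBL2 held none. E2F1 and RBL1, which rose, and E2F7, which fell, thus each held 2 matches. E2F3 held as many and did not pass the test. Any part of the matches in the changes was not tested. A match is a string of letters and not a shown binding site. The transcript starts of these 5 windows lay within 19 bases of the outermost exon end in the deposited annotation.

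Per exon length, E2F7 was the most abundant of the 10 genes in these libraries. Levels between genes were compared in RPKM, which divides CPM by the exon length of the gene in kilobases. In the control libraries, mean RPKM fell in the order E2F7 (21.7), E2F4 (10.1), E2F3 (6.59), RB1 (5.44), RBL2 (4.53), RBL1 (4.09), E2F6 (3.15), E2F1 (2.29), E2F8 (1.68) and E2F2 (0.573). The library ranges of neighbours in this order did not overlap, although RBL2 and RBL1 came within rounding of each other, both at 4.21 RPKM in control replicate 2. After knockdown, RBL1 moved above both RBL2 and RB1, with ranges that overlapped those of RB1 (5.10 to 5.47 RPKM for RBL1 and 5.0 to 5.32 RPKM for RB1), and E2F1 moved above E2F6. E2F7, E2F4 and E2F3 stayed at the top of the order and E2F8 and E2F2 at its end.

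**Figure D1:**
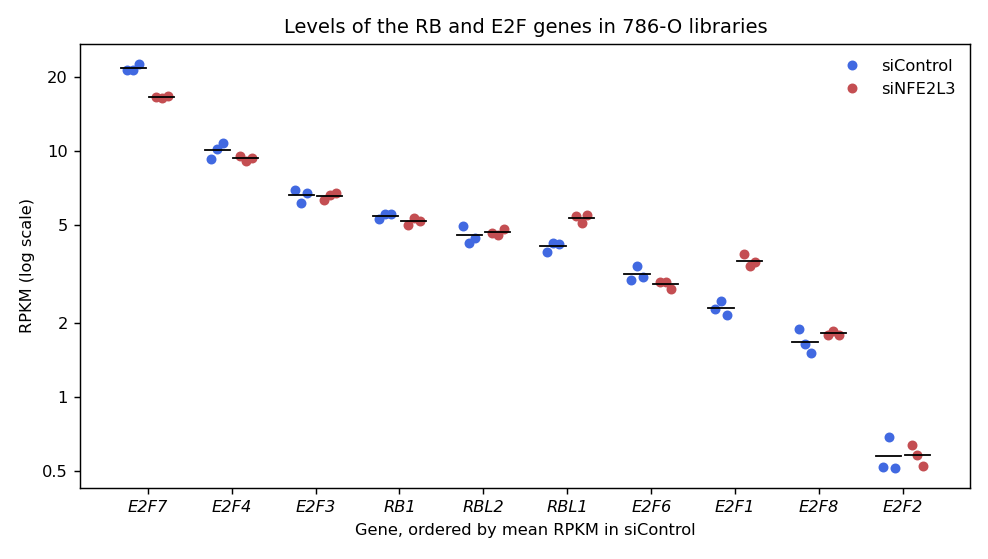
RPKM of each gene (log axis) in the 3 siControl and the 3 siNFE2L3 libraries, with 1 point per library and a black bar at the group mean. E2F1 and RBL1 lie higher and E2F7 lower in all 3 knockdown libraries, while RB1, RBL2, E2F2, E2F3, E2F4 and E2F8 overlap between the groups.

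Of the pocket proteins, RBL1 was higher after knockdown, and RB1 and RBL2 did not pass the test. RB1 (chr13:48303751-48481986 on GRCh38, plus strand), the retinoblastoma tumour suppressor, measured 5.28, 5.51 and 5.53 RPKM in the control libraries and 5.0, 5.32 and 5.17 RPKM in the knockdown libraries. The groups overlapped, with a log2 fold change of −0.08 (95% interval −0.18 to 0.03, adjusted p = 0.303). RBL2 (chr16:53433977-53491649, plus strand) encodes p130, the pocket protein most associated with quiescent cells. It measured 4.95, 4.21 and 4.43 RPKM in control and 4.64, 4.55 and 4.81 RPKM in knockdown, with the knockdown values inside the control range. Its log2 fold change was 0.04 (95% interval −0.07 to 0.16, adjusted p = 0.637).

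RBL1 (chr20:36996349-37095995, minus strand) encodes p107, which is best known in cycling cells and is itself an E2F target. It measured 3.87, 4.21 and 4.17 RPKM in control and 5.41, 5.10 and 5.47 RPKM in knockdown. Every knockdown library lay above every control library, and the knockdown level was 130.4% of control (log2 fold change 0.38 ± 0.0553, SE, adjusted p = 9.10e-06). Within the pocket proteins, RBL1 had 73.3, 76.5 and 75.5 RPKM per 100 RPKM of RB1 in control and 108.1, 95.9 and 105.9 in knockdown. The summed RPKM of the 3 pocket genes was 14.1 ± 0.105 (SD, n = 3) in control and 15.2 ± 0.25 (SD, n = 3) in knockdown, and the groups did not overlap.

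Some exon sequence of 2 pocket genes is shared with genes on the opposite strand, and no source used here says whether the counting used strand. For RBL1, 211 bases (3.5% of its exons) lie over RP4-621N11.2, which had a mean of 6.32 CPM. For RBL2, 610 bases lie over AKTIP (29.0 CPM) and 721 bases over RP11-44F14.7 (10.3 CPM). Reads from either strand could be mixed there if the counting took no account of strand. E2F8 shared 7 exon bases with RP11-428C19.4, and the remaining members shared none. Processed copies of E2F3, E2F4 and E2F6 held between 0 and 8 counts over all 6 libraries.

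Of the activators, E2F1 rose and E2F2 and E2F3 did not pass the test. E2F1 (chr20:33675683-33686404, minus strand), which drives S-phase entry and its own transcription, measured 2.27, 2.45 and 2.15 RPKM in control and 3.80, 3.41 and 3.52 RPKM in knockdown. The lowest knockdown library lay well above the highest control library. The knockdown level was 156.2% of control, the largest change of the 10 genes (log2 fold change 0.64 ± 0.0895, SE, 95% interval 0.46 to 0.83, adjusted p = 5.23e-06). These values rest on 299 to 354 counts per control library and 453 to 531 per knockdown library.

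E2F3 (chr6:20401906-20493715, plus strand) was the most abundant activator and supplied 69.7% ± 3.01 (SD, n = 3) of the activators' RPKM in control and 61.2% ± 2.12 in knockdown. It measured 6.92, 6.13 and 6.71 RPKM in control and 6.32, 6.63 and 6.73 RPKM in knockdown, values that overlapped throughout. Its log2 fold change was −0.01 (95% interval −0.12 to 0.11, adjusted p = 0.954). E2F2 (chr1:23506430-23531220, minus strand) was the least abundant member, at 0.518, 0.685 and 0.515 RPKM in control and 0.636, 0.580 and 0.521 RPKM in knockdown. With 146 to 216 counts per library, its interval was the widest (log2 fold change 0.02, 95% interval −0.27 to 0.30, adjusted p = 0.952), and a change of the size seen in RBL1 lay outside it.

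Of the repressors, E2F7 fell and E2F4, E2F6 and E2F8 did not pass the test. E2F7 (chr12:77021247-77065580, minus strand) measured 21.3, 21.4 and 22.5 RPKM in control and 16.5, 16.4 and 16.7 RPKM in knockdown. The 3 knockdown libraries lay close together and below every control library, at 75.9% of the control level (log2 fold change −0.40 ± 0.0404, SE, 95% interval −0.48 to −0.31, adjusted p = 4.94e-08). With 5413 to 7879 counts per library it was also the most precisely measured member. E2F8 (chr11:19224063-19241620, minus strand), the other atypical repressor and a frequent partner of E2F7, did not follow it. It measured 1.89, 1.64 and 1.50 RPKM in control and 1.79, 1.85 and 1.79 RPKM in knockdown, with all knockdown values inside the control range. Its log2 fold change was 0.11 (95% interval −0.08 to 0.30, adjusted p = 0.430), an interval that does not reach that of E2F7. The difference between the 2 genes was not tested as such.

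E2F4 (chr16:67192169-67198918, plus strand), the main E2F of quiescent cells and a partner of p107 and p130, measured 9.27, 10.2 and 10.8 RPKM in control and 9.54, 9.12 and 9.36 RPKM in knockdown. Control replicate 1 lay among the knockdown values and the other control libraries above them. The log2 fold change was −0.11 (95% interval −0.23 to 0.00, adjusted p = 0.149). Without control replicate 1 it was −0.17 with an adjusted p = 0.0190, the only 1 of 16 alternative settings that moved a member across the threshold (adjusted p between 0.0190 and 0.520 over these settings), and then 2 members were lower in place of 1. E2F6 (chr2:11444375-11466177, minus strand) measured 2.99, 3.39 and 3.08 RPKM in control and 2.92, 2.93 and 2.74 RPKM in knockdown. Its groups did not overlap, but the gap was small and the log2 fold change of −0.14 (95% interval −0.29 to 0.01) did not pass the test (adjusted p = 0.171).

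For a single gene with 3 libraries in each group, the exact two-sided permutation test cannot give a p below 0.1. E2F1, RBL1, E2F7 and E2F6 were at that limit.

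**Figure D2:**
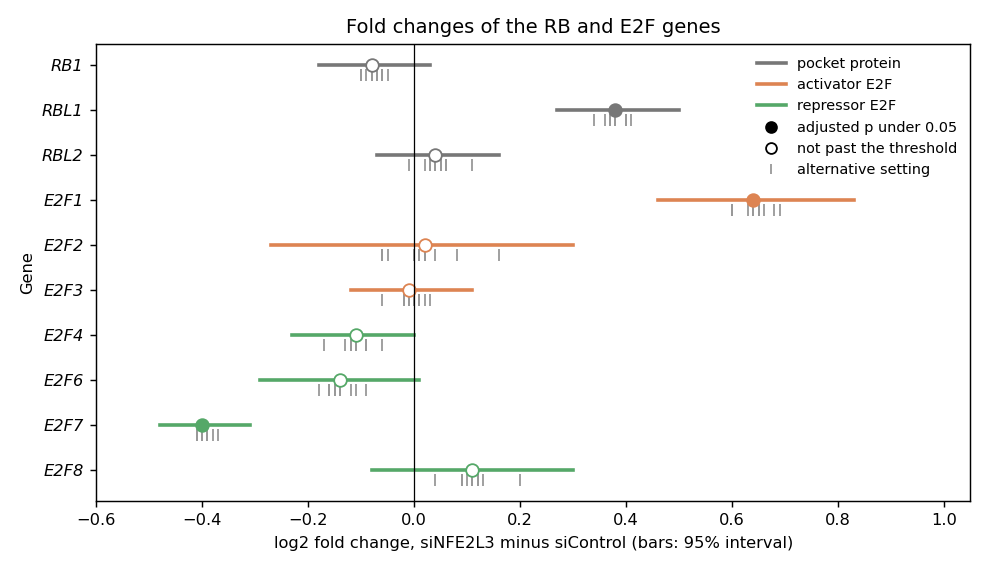
Log2 fold change (knockdown minus control) of each gene from the edgeR fit over all tested genes. Bars are 95% intervals, filled points passed an adjusted p of 0.05, and grey ticks are the 16 alternative settings, which for E2F1, RBL1 and E2F7 all keep the same sign.

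The activators made up a larger part of the transcripts of the 7 E2F genes described here after knockdown. The summed RPKM of E2F1, E2F2 and E2F3 made up 21.5%, 20.2% and 19.8% of the summed RPKM of the 7 E2F genes in control and 25.9%, 26.0% and 26.0% in knockdown. No knockdown library lay within the control range. Both sides of the ratio moved. The activators were at 9.45 ± 0.234 RPKM (SD, n = 3) in control and 10.7 ± 0.0831 in knockdown, and the repressors at 36.7 ± 1.22 and 30.5 ± 0.231 RPKM. Among the activators E2F1 went from a mean of 2.29 to 3.58 RPKM, while E2F3 (6.59 and 6.56) and E2F2 (0.573 and 0.579) barely moved. Among the repressors E2F7 moved most, from 21.7 to 16.5 RPKM, beside 10.1 and 9.34 RPKM for E2F4. The summed values were formed from genes chosen with their values known, so they are given as a description with no test.

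The share was also taken without E2F7 and without E2F1, each time with the other of these called genes kept in. It was not taken without both. E2F7 alone made up 59.3% ± 0.837 (SD, n = 3) of the repressors' RPKM in control and 54.1% ± 0.508 in knockdown. When E2F7 was left out, the activator share was 40.7%, 37.8% and 37.9% in control and 43%, 43.3% and 43.7% in knockdown. When E2F1 was left out in place of E2F7, the share was 17.3%, 15.7% and 16% in control and 18.5%, 19.2% and 19.2% in knockdown. E2F1 reached 10.7, 11.4 and 9.56 RPKM per 100 RPKM of E2F7 in control and 23.1, 20.9 and 21.1 in knockdown. On the log2 scale every gene weighs the same. There the mean of the activators minus that of the repressors was −1.52, −1.44 and −1.57 in control. In knockdown it was −1.11, −1.18 and −1.19, a rise of 0.35. Both called genes are part of this rise, with log2 fold changes of 0.64 for E2F1 and −0.40 for E2F7. E2F2 (0.02), E2F3 (−0.01), E2F4 (−0.11), E2F6 (−0.14) and E2F8 (0.11) did not pass the test. The rise is therefore not a shift shared by all members of either class.

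**Figure D3:**
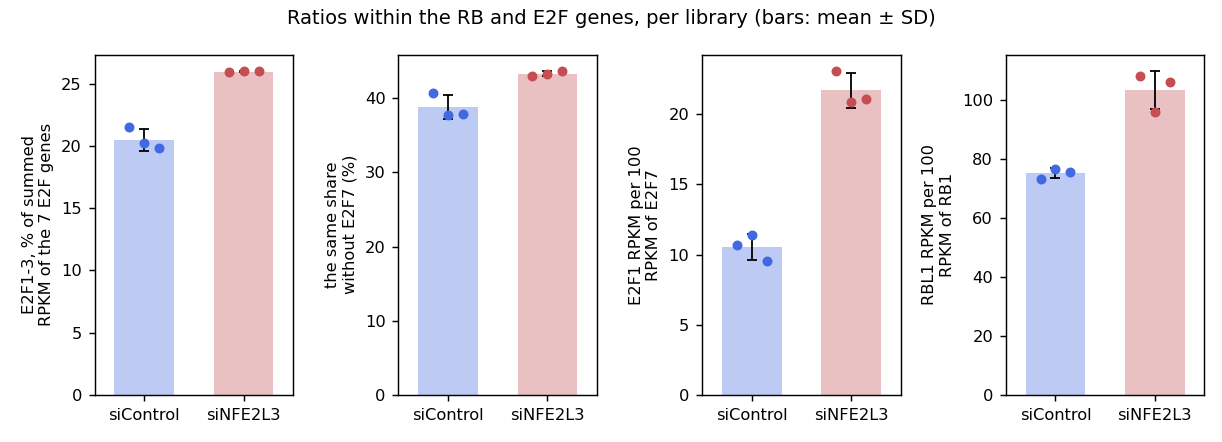
Ratios of RPKM values within the family in each library, with bars at the group mean, error bars of 1 SD (n = 3) and 1 point per library. The share of the activators among the 7 E2F genes, with and without E2F7, E2F1 per 100 of E2F7 and RBL1 per 100 of RB1 all lie higher in the 3 knockdown libraries than in any control library.

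Other genes of the pathway were read from lists by role, and their median log2 fold changes lay between −0.08, for 6 genes of RB turnover, and 0.17, for 4 germline genes, beside 0.00 for all tested genes. The counts of these lists, several of them short, are read against the same 12.7% higher and 14.0% lower of all tested genes. In between lay CDK inhibitors (−0.06), the E2F6 complex (−0.04), MuvB (−0.01), co-repressors (0.00), RB kinases (0.02), phosphatases (0.06) and DP partners (0.12). The DP proteins, which pair with the typical E2Fs on DNA, did not pass the test. TFDP1 averaged 21.9 ± 0.274 CPM (SD, n = 3) in control and 24.0 ± 0.466 CPM in knockdown (log2 fold change 0.14, adjusted p = 0.0710), and TFDP2 33.8 ± 1.14 and 36.3 ± 1.16 CPM (0.11, adjusted p = 0.130). Neither pair of groups overlapped, and TFDP1 passed with upper quartile scaling (adjusted p = 0.0374; 0.0374 to 0.203 over its alternatives). TFDP3 had too few counts to be tested.

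The MuvB complex joins p130 and E2F4 in the DREAM repressor and joins MYBL2 and FOXM1 in activating genes of mitosis. Of its 8 listed genes, 2 were higher and 2 lower. The 2 that were higher are MYB factors: MYBL1 went from 240.5 ± 10.1 to 296.4 ± 15.5 CPM (log2 fold change 0.30, adjusted p = 8.77e-06) and MYBL2, an E2F target, from 270.7 ± 7.01 to 301.5 ± 6.41 CPM (0.16, adjusted p = 0.00361). FOXM1, the activator of G2/M genes, was lower, at 51.4 ± 2.46 CPM in control and 41.4 ± 1.02 CPM in knockdown (−0.31, adjusted p = 2.45e-05). RBBP4 was lower by a small step (−0.16, adjusted p = 0.0173), which lost its call when any of 4 libraries was left out (control replicates 1 and 3, knockdown replicates 2 and 3; adjusted p of at most 0.0745). LIN9, LIN37, LIN52 and LIN54, the core subunits other than RBBP4, had log2 fold changes of 0.07, 0.08, −0.15 and −0.09. They did not pass the test.

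The cyclins and kinases that phosphorylate the pocket proteins showed small changes in both directions, with 2 higher and 2 lower of 11 (18.2% each). These shares lie near the 12.7% higher and 14.0% lower among all tested genes. CCND1, the cyclin D of these cells at 1664.1 CPM in control and 1738.4 CPM in knockdown, did not pass the test (0.06, adjusted p = 0.215), and neither did CDK6 (−0.04, adjusted p = 0.566). Cyclin E2, encoded by the E2F target CCNE2, was higher, from 7.38 ± 0.766 to 9.25 ± 0.465 CPM (0.32, adjusted p = 0.00770, and adjusted p = 0.0651 without control replicate 3). CCND3 was lower, from 16 ± 0.252 to 13.2 ± 1.42 CPM (−0.28, adjusted p = 0.00543, and adjusted p = 0.0652 without knockdown replicate 2). The calls of CDK2 (0.15, adjusted p = 0.0287) and CDK4 (−0.15, adjusted p = 0.0419) were not stable. CDK2 lost its call in 5 of 16 alternatives and CDK4 in 9, with adjusted p up to 0.158 and 0.347. Without control replicate 3, knockdown replicate 1 or knockdown replicate 3 the adjusted p of CDK2 was 0.158, 0.119 and 0.141, and CDK4 kept its call only when control replicate 1 was the library left out.

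Among the CDK inhibitors, 1 of 5 tested genes changed. CDKN1A, which encodes p21, was lower, at 57.3 ± 4.86 CPM in control and 48.0 ± 2.73 CPM in knockdown (−0.25, adjusted p = 0.00126). CDKN1B, which encodes p27, measured 72 ± 2.71 and 70.5 ± 2.86 CPM (−0.03, adjusted p = 0.682), CDKN1C had a log2 fold change of −0.15 (adjusted p = 0.435) and CDKN2D of −0.06 (adjusted p = 0.510). CDKN2A and CDKN2B, the genes of the CDK4 and CDK6 inhibitors p16 and p15, averaged at most 0.0727 CPM in either group and were not tested.

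Of the 5 phosphatase subunits that can return pocket proteins to the unphosphorylated state, 1 was higher and 1 lower. Both encode catalytic subunits of protein phosphatase 1: PPP1CB went from 270.2 ± 4.79 to 321.2 ± 13.9 CPM (0.25, adjusted p = 3.78e-05), and PPP1CA from 31.1 ± 2.36 to 26.9 ± 0.997 CPM (−0.21, adjusted p = 0.00841). The call of PPP1CA was lost when control replicate 2 was left out (adjusted p = 0.0651) or knockdown replicate 3 (adjusted p = 0.0536). PPP2R3A (−0.11, adjusted p = 0.0798) and PPP2R2A (0.08, adjusted p = 0.159), regulatory subunits of protein phosphatase 2A, did not pass the test.

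The chromatin enzymes that pocket proteins recruit were split, with 4 of 14 higher and 1 lower. SMARCA2, the ATPase BRM of the SWI/SNF remodeller, was lower by more than any gene of the family, at 354.4 ± 15.0 CPM in control and 205.7 ± 4.26 CPM in knockdown (−0.78, adjusted p = 5.31e-13). The 4 genes that were higher belong to histone deacetylase complexes: HDAC2 (0.21, adjusted p = 1.22e-04), ARID4A, an RB-binding protein (0.29, adjusted p = 2.66e-04), SAP30 (0.25, adjusted p = 4.64e-04) and HDAC1 (0.20, adjusted p = 6.96e-04). HDAC1 is named to complete the count, and the genes that follow to set beside it, all after their values were seen. The listed co-repressors SIN3A (−0.11), HDAC3 (−0.09), RBBP7 (−0.08), ARID4B (−0.02) and SIN3B (0.01) did not pass the test. RBBP4, read with MuvB above, was lower (−0.16). Of the 6 genes listed for turnover of RB, MDM2, a ubiquitin ligase (−0.21, adjusted p = 0.00323), and PSME3, a proteasome activator (−0.14, adjusted p = 0.0173), were lower, USP7, a deubiquitinase (0.15, adjusted p = 0.00662), was higher, and PSMD10 had a log2 fold change of −0.10 (adjusted p = 0.204). PSME3 lost its call when any library except control replicate 1 was left out (adjusted p of at most 0.0731). SKP2 (−0.07, adjusted p = 0.505) and POMP (−0.04, adjusted p = 0.63) did not pass the test. The paper's discussion, citing earlier work, describes POMP as raised by NFE2L3, with degradation of Rb protein as a result. The RNA levels here do not measure Rb protein, and that account was not tested.

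E2F6 acts in a Polycomb complex, PRC1.6, of which 2 of 10 listed genes (20%) were lower and none higher, a share near the 14.0% lower among all tested genes. RNF2, its ubiquitin ligase, fell from 24.7 ± 0.910 to 17.9 ± 0.160 CPM (−0.46, adjusted p = 1.17e-06) and CBX3, a heterochromatin protein, from 541.7 ± 23.8 to 457.4 ± 14.2 CPM (−0.24, adjusted p = 5.76e-05). PCGF6, the subunit that defines this complex, had a log2 fold change of −0.20 (adjusted p = 0.0900) and RYBP of 0.08 (adjusted p = 0.220). Of 14 germline genes listed as E2F6 targets, 10 had too few counts to be tested. Of the other 4, STAG3, a meiotic cohesin subunit, was higher, at 4.56 ± 0.516 and 5.62 ± 0.0902 CPM (0.30, adjusted p = 0.0358), and so was TDRKH, a piRNA pathway protein (0.25, adjusted p = 0.00717). STAG3 lost its call in 7 of 16 alternatives (adjusted p up to 0.182), which included leaving out any library except control replicate 2, and TDRKH lost it when control replicate 2 (adjusted p = 0.0640) or knockdown replicate 3 (adjusted p = 0.0510) was left out. SYCE2 (0.09, adjusted p = 0.694) and TUBA3D (−0.31, adjusted p = 0.602, with near copies TUBA3C and TUBA3E) did not pass the test.

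Genes that E2F factors switch on at G1/S, most of them for DNA synthesis, are the usual readout of E2F activity. Of 52 such genes tested, 23 were higher (44.2%), 2 were lower (3.85%) and 27 did not pass the test. Among all tested genes 12.7% were higher and 14.0% lower. The median log2 fold change was 0.13 against 0.00 for all tested genes. The list was written with earlier results of these data known. MCM3, a subunit of the replicative helicase, rose from 70.7 ± 4.2 to 106.8 ± 5.34 CPM (0.60, adjusted p = 1.19e-09), and PCNA, the sliding clamp, from 31.9 ± 1.17 to 42.3 ± 0.743 CPM (0.41, adjusted p = 8.22e-07). The nucleotide enzymes TYMS (0.29, adjusted p = 2.87e-06) and RRM2 (0.25, adjusted p = 5.50e-05), the chromatin assembly subunit CHAF1A (0.28, adjusted p = 2.70e-05), the histone mRNA binder SLBP (0.26, adjusted p = 4.14e-05), the uracil glycosylase UNG (0.62, adjusted p = 6.36e-05) and the initiation factor MCM10 (0.35, adjusted p = 1.16e-04) were also higher. The 2 lower genes were POLA1, of DNA polymerase alpha, and TK1, thymidine kinase, both at −0.27 (adjusted p = 0.00228 and 0.0113), named after their values were seen. TK1 lost its call without knockdown replicate 2 (−0.23, adjusted p = 0.0704), which left POLA1 as the 1 lower gene. Among the other replication helicase subunits the steps were small, as in MCM6 (0.23), MCM7 (0.14) and MCM4 (0.14).

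The same E2F motif letters were searched in the promoters of these targets. A window was found for 43 of the 52 genes, and 35 of the 43 (81.4%) held a match, against 15.3% of all 27305 gene symbols with a window. Among the genes called higher it was 16 of 20 and among those not past the threshold 17 of 21, so the shares lay close together. The genes were listed as E2F targets, so the 81.4% cannot be read as a result of these data. The 27305 symbols were not limited to the tested genes.

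Genes of G2/M, which MuvB and FOXM1 activate, went in both directions, with 7 higher and 7 lower of 28 tested (25% each). These shares stand beside 12.7% higher and 14.0% lower among all tested genes. The median log2 fold change of the list was −0.04. CENPE, a kinetochore motor, and CENPF, a kinetochore protein, were higher, at 164.7 ± 22.8 and 339.1 ± 7.20 CPM for CENPE (1.04, adjusted p = 4.98e-12) and 679.9 ± 79.3 and 1139.3 ± 44.4 CPM for CENPF (0.74, adjusted p = 3.20e-10). TOP2A, topoisomerase II alpha (−0.37, adjusted p = 1.17e-06), and CDC25B, a phosphatase that activates CDK1 (−0.38, adjusted p = 1.48e-06), were lower. Of these 28 promoters, 23 had a window and 6 of the 23 (26.1%) held the E2F motif letters.

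**Figure D4:**
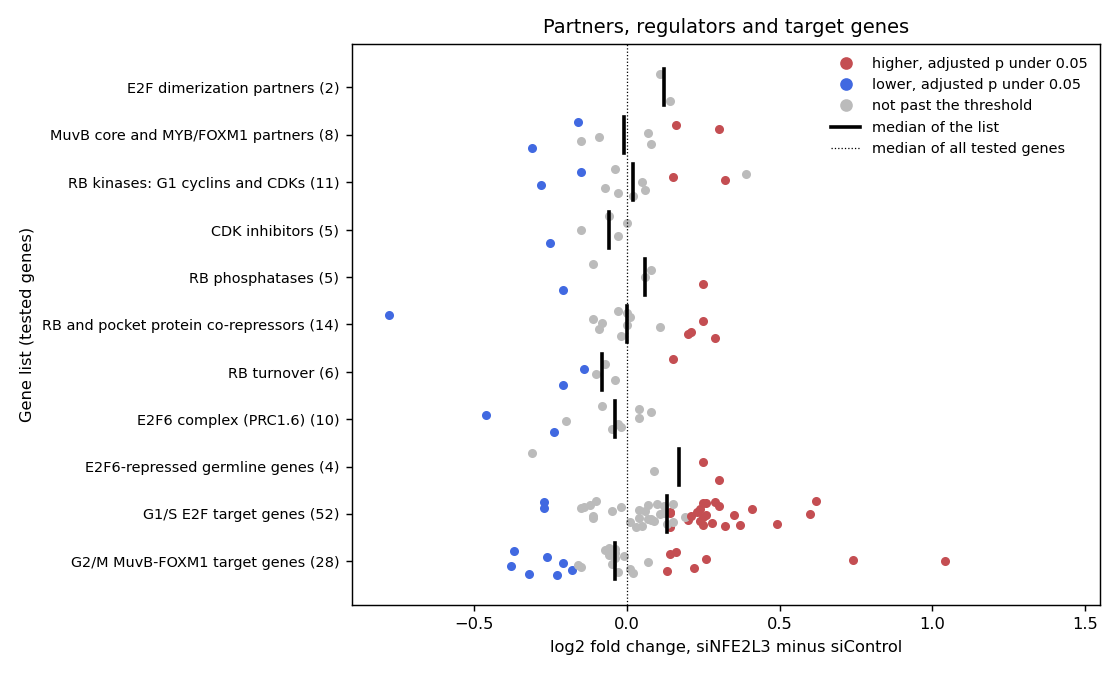
Log2 fold change (knockdown minus control) of every tested gene of each list, with the number of tested genes in parentheses, list medians as black bars and the median of all tested genes as a dotted line. Vertical scatter has no meaning; the G1/S targets hold 23 higher and 2 lower genes of 52, and the G2/M targets 7 and 7 of 28.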

How the data were processed

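RNA-seq of 786-O cells was analysed in 3 control and 3 NFE2L3 knockdown libraries. As the study's methods and the processing notes in the labels describe it, the authors trimmed with Trimmomatic 0.36, collapsed reads that shared a molecular identifier, mapped with STAR 2.5.3a and counted exon reads per gene with featureCounts (Subread 1.5.1). Deposited were these raw counts, with GRCh38 exon positions and exon lengths. Sequencing was on a DNBSEQ-T7 from a stranded kit per the labels, and on an Illumina instrument per the paper. Counts under 30 were even in 67.6% to 69.9% of nonzero cases, so halved counts were tried as an alternative.

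From the counts, CPM, RPKM and log2 fold changes were computed with edgeR 4.0.16 in R 4.3.3. Of 56303 genes, filterByExpr (minimum count 10) left 19916. They were scaled by TMM and fitted by group alone, and edgeR's quasi-likelihood p-values were adjusted by Benjamini-Hochberg across all 19916. RPKM used the exon length and the scaled library size. The procedure was tested on simulated data. Alternatives were RLE, upper quartile and unscaled totals, an unfiltered table, a stricter filter (10 counts in each library), DESeq2 1.42.0, limma-voom (limma 3.58.1), the edgeR exact test, a replicate block, halved counts and leaving out each library. The members, the gene lists and the tests were chosen with earlier results of these data known. Named genes are NFE2L3, all members, the 4 genes of each list with the smallest adjusted p (8 of the G1/S targets), the 5 genes most like E2F7, and overlapping genes or copies of members. Further genes named to fill a count or describe a complex were picked after their values were seen.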

Additional observations from a re-analysis of the deposited data

How the results depend on the processing

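E2F1 and RBL1 were called higher and E2F7 lower under all 16 alternatives, with log2 fold changes of 0.60 to 0.69, 0.34 to 0.41 and −0.41 to −0.37. The number of members called higher stayed at 2. The number called lower was 1 to 2 when each library was left out in turn (2 without control replicate 1), and the number of lower G1/S targets was 1 to 3. The number of higher G1/S targets ran from 18 to 28, and the rise of activators over repressors from 0.32 to 0.39. Same-numbered control and knockdown libraries did not deviate together (correlations of −0.060, −0.160 and −0.071 over 11633 genes), so the numbers were not taken as pairs. With the replicate block, 2278 genes were higher and 2504 lower, in place of 2537 and 2783, and the members called were 2 and 1 as before. Over 57 named genes, 36 of 912 alternative values lost a call and 3 gained one. None of the 608 values of the 38 called genes changed sign. Of the 304 values of the 19 genes that were not called, 11 changed sign, in CDKN1B, CDKN1C (0.07 without control replicate 2), E2F2, E2F3, RBL2 and SYCE2. E2F2 ran from −0.06 to 0.16, E2F3 from −0.06 to 0.03 and RBL2 from −0.01 to 0.11.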

Other observations

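The genes whose profile over the 6 libraries was closest to that of E2F7, measured as the Euclidean distance of log2 CPM centred on the control mean among 10040 genes with a mean of at least 5 CPM, were ABHD2, a lipid hydrolase (distance 0.0486), IFIH1, the RNA sensor MDA5 (0.0516), OSMR, the oncostatin M receptor (0.0524), FGF2, a fibroblast growth factor (0.0538), and GEM, a small GTPase (0.0595). Their log2 fold changes of −0.40, −0.39, −0.42, −0.41 and −0.43 follow from the way they were chosen. No gene of the G1/S or G2/M lists was among the 5. The lowest log2 fold changes in these lists were −0.27 and −0.38, so the choice by profile left them little room. Their absence is therefore not read as a result.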
